A study of Mus musculus with 16 samples.

Results

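The keratins *Krt5*, *Krt14*, *Krt15*, *Krt1*, *Krt10*, *Krt2*, *Krt77* and *Krt80* were followed in mouse epidermis of *Sas-4* mutants and controls. They were taken as the rows of the deposited tables that carry these symbols, 8 of 49452 genes and 8 of the 54 keratin genes listed there. RNA was read in 16 libraries, 4 per group. The E13.5 RNA came from sheets of epidermis and the P0 RNA from keratinocytes that had not been plated. The labels give the strain as FVB/C57BL6 for every animal. Mutants carried *K14-Cre* with both *Sas-4* alleles floxed (genotype tags tg/wt and fl/fl), and all controls carried 1 floxed allele (*Sas-4* fl/wt). By the genotype tags, none of the E13.5 libraries titled control carried *K14-Cre*, so effects of Cre and of *Sas-4* cannot be told apart there. At P0, controls 2 and 3 carried *K14-Cre* and controls 1 and 4 did not. Cre was driven by the keratin 14 promoter, so deletion is limited to cells that have used it and their descendants.

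Keratins build the intermediate filaments of epithelial cells as pairs of 1 type I and 1 type II protein. In the epidermis, basal cells use *Krt5* (type II) with *Krt14* or *Krt15* (both type I), and cells that leave the basal layer for the spinous layer switch to *Krt1* (type II) and *Krt10* (type I). Stratification begins around the middle of skin development in the embryo and is complete at birth, which is the interval that both sampled stages span.

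The E13.5 groups need a caution before any direction is read. *Cenpj*, the symbol of *Sas-4* in the tables, was at 3.56 to 3.85 FPKM in the libraries titled control and at 8.66 to 9.17 in those titled mutant, against the titles. The column names also give the opposite group for all 8 libraries. The E13.5 genotype tags, *K14-Cre* included, follow the titles and are in doubt with them. At P0 *Cenpj* was at 3.22 to 4.35 FPKM in controls and 1.09 to 1.52 in mutants, as the labels say. E13.5 libraries are therefore called "titled control" and "titled mutant" throughout, and each E13.5 difference has the opposite sign when grouped by column name. FPKM, mapped fragments scaled to gene length and library size, summed to 546593 to 584238 per library at E13.5 and to 605744 to 740238 at P0. Keratins held 0.457 to 0.604% of that sum at E13.5, and at P0 4.96 to 6.03% in controls and 7.48 to 9.38% in mutants. Read numbers are unknown. Relative depth from the lowest values was taken against titled control 1 at E13.5 and control 1 at P0, so it cannot be compared between stages. It was 0.942 to 1.03 in libraries titled control and 0.837 to 0.913 in those titled mutant, without overlap. At P0 it was 0.925 to 1.10.

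Basal keratins made up most of the keratin RNA at E13.5, and the spinous pair took a larger share at P0. *Krt5* alone held 39.4 to 43.9% of the summed keratin FPKM at E13.5 and *Krt14* 30.0 to 36.1%, while *Krt1* held 0.603 to 3.72% and *Krt10* 2.83 to 7.84%. In P0 controls, *Krt5* held 24.3 to 27.96%, *Krt14* 18.3 to 22.3%, *Krt1* 17.6 to 21.7% and *Krt10* 17.5 to 23.3%. The 8 keratins together took 86.1 to 90.5% of keratin FPKM in libraries titled control and 92.1 to 93.5% in those titled mutant, without overlap. Their share was 90.0 to 92.3% in P0 controls. In P0 mutants it lay below the control range, at 75.9 to 77.1%. *Krt6a*, *Krt6b*, *Krt16* and *Krt17*, keratins of wounded or activated epidermis, took 22.6 to 23.7% there against 5.44 to 8.06% in controls. *Krt17* held most of the control share, at 1818 to 2534 FPKM, and was at 2747 to 3841 FPKM in P0 mutants. *Krt6a* went from 43.1 ± 21.4 to 3098 ± 228 FPKM, *Krt6b* from 55.6 ± 37.4 to 2774 ± 535 and *Krt16* from 237 ± 132 to 3764 ± 525 (SD, n = 4 each).

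**Figure D1:**
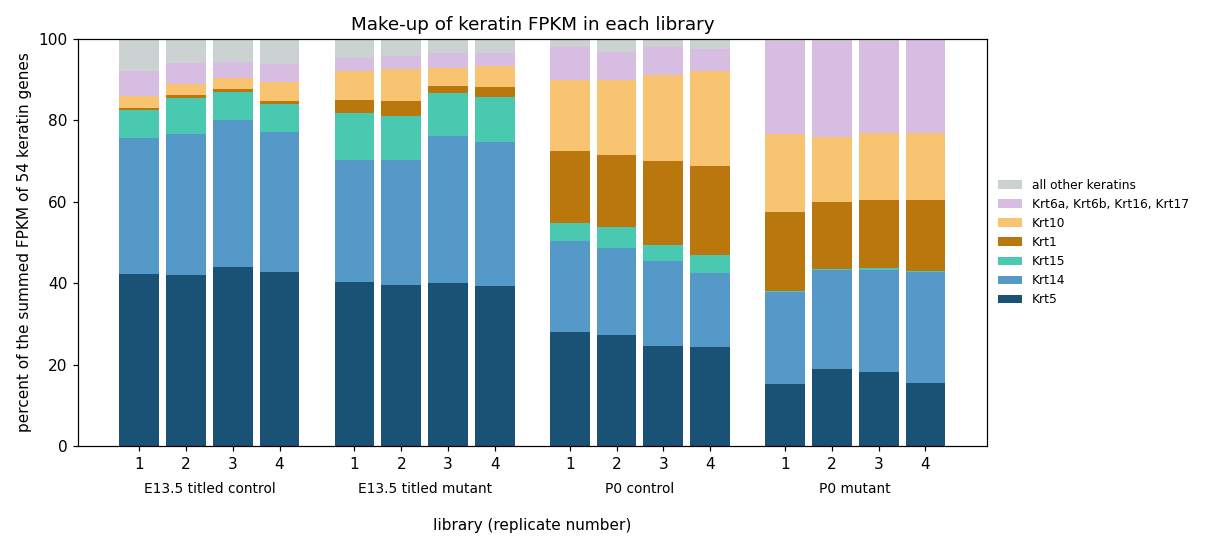
Share of each keratin in the summed FPKM of 54 keratin genes (percent, y axis) in each of 16 libraries (x axis, replicate number within group), with 1 stacked bar per library. *Krt5* and *Krt14* fill most of every E13.5 bar, and *Krt1* and *Krt10* take larger shares at P0 than at E13.5. In P0 mutants *Krt15* shrinks to 0.147 to 0.336% while the activation keratins reach 22.6 to 23.7%.

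*Krt5*, the type II keratin of basal cells (mm10 chromosome 15, 101707070 to 101712891, minus strand), overlapped between groups at both stages and was not called. At E13.5 it was at 1189, 1339, 1227 and 1165 FPKM in titled controls 1 to 4 and at 1340.2, 1248, 1011 and 1081 FPKM in titled mutants 1 to 4. The groups overlapped, and the log2 fold change was −0.08 (titled mutant minus titled control, SE 0.09, 95% interval −0.28 to 0.12, limma adjusted p = 0.558). At P0 it was at 10261, 8774, 9093 and 8862 FPKM in controls and 9172, 9159.5, 9521 and 9698 FPKM in mutants. The mutants lay inside the control range, with a log2 fold change of 0.02 (SE 0.13, 95% interval −0.27 to 0.32, limma adjusted p = 0.899).

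Reads of *Krt5* may be shared with other genes. *Gm44323*, a gene of 129 bases on the opposite strand inside *Krt5*, was listed at 17341 ± 990 FPKM in P0 controls (SD, n = 4) and 17888 ± 561 FPKM in P0 mutants, and whether the counting used strand was not given in the sources used here. Reads of the pair therefore cannot be told apart. Of the 75-base windows of annotated *Krt5* transcripts, 5.18% also occurred in *Krt6a*, *Krt6b*, *Gm5478* or *Gm5414*. Those shared with *Krt6a* were 4.71%, and that share of the mean level of *Krt6a* is 2.03 FPKM in P0 controls and 146 FPKM in P0 mutants, beside a difference in mean *Krt5* of 140.1 FPKM.

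*Krt14*, the type I partner of *Krt5* in basal cells (chromosome 11, 100203162 to 100207548, minus strand), was not called at E13.5 and was higher in P0 mutants. At E13.5 it was at 935, 1092, 1009.55 and 934 FPKM in titled controls and 996, 966, 910.0 and 972 FPKM in titled mutants. These values overlapped, with a log2 fold change of −0.04 (SE 0.06, 95% interval −0.18 to 0.09, limma adjusted p = 0.613). At P0 it was at 8203, 6833, 7668 and 6669.6 FPKM in controls and 13495, 11859, 13243 and 17208 FPKM in mutants. Every mutant lay above every control, and the mean was 1.90-fold higher (log2 fold change 0.92, SE 0.16, limma adjusted p = 0.00196; exact permutation p = 0.0286, two-sided, the smallest that 4 against 4 allows).

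Further measurements stand beside this rise. With no filter on low values, the limma adjusted p of *Krt14* was 0.0831. Against the P0 controls that carry *K14-Cre* alone, the log2 fold change of *Krt14* was 0.93 (limma adjusted p = 0.0299), and controls with and without the transgene overlapped. The share of *Krt14* windows of 75 bases that also occur in *Krt16* was 5.71%, and no other gene shared one. *Krt16* was at 3764 ± 525 FPKM in P0 mutants (SD, n = 4), and 5.71% of that level is 215 FPKM, against a difference in mean *Krt14* of 6608 FPKM. Read length and the handling of reads that match several genes are not given in the sources used here.

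*Krt15*, a type I keratin of basal cells that is also known from the stem cells of the hair follicle (chromosome 11, 100131758 to 100135928, minus strand), had the largest log2 fold change among the 8 keratins followed here, at P0. In P0 controls it was at 1658, 1649, 1402 and 1642 FPKM, and in P0 mutants at 155, 121, 176 and 92.6 FPKM. The groups lay far apart, and the mean was 11.7-fold lower in mutants (log2 fold change −3.57, SE 0.18, limma adjusted p = 2.27e-06). At E13.5 it was at 189, 286, 195 and 181 FPKM in titled controls and 383, 342, 269 and 303 FPKM in titled mutants. Titled control 2 lay above titled mutant 3, and the mean was 1.52-fold higher in titled mutants (log2 fold change 0.62, SE 0.16, limma adjusted p = 0.0203; exact permutation p = 0.0571, two-sided).

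The E13.5 call of *Krt15* rested on few libraries. The limma adjusted p was 0.0554 without titled control 3, 0.0557 without titled control 4, 0.0538 without titled mutant 1 and 0.0535 without titled mutant 2, and 0.0611 with no filter on low values. Titled controls 3 and 4 are also those with the label number 67, and without both the log2 fold change was 0.47 (limma adjusted p = 0.169). The P0 call held under every alternative run.

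Hair follicle markers moved with *Krt15* at P0. Of 18 listed markers, 17 fell and none rose, against 30.7% lower and 11.7% higher over all genes. Their summed level was 352 to 473 FPKM in controls and 61.1 to 83.2 FPKM in mutants, with no marker at 0 in every library. *Lhx2*, which codes for a transcription factor of follicle progenitors, went from 75.6 ± 9.34 to 3.83 ± 1.19 FPKM (SD, n = 4 each), and the inner root sheath keratins *Krt27* and *Krt28* from 27.5 ± 16.4 to 0.518 ± 0.272 and from 23.8 ± 8.07 to 0.672 ± 0.243 FPKM. The part of follicle cells in the fall of *Krt15* was not tested. In bulk samples, fewer cells of a type and less RNA per cell cannot be told apart. At E13.5, 7 of the 18 markers passed the filter. Of these, titled mutants had 1 higher and 2 lower, against 11.8% higher and 13.4% lower over all genes. Sums were 58.9 to 68.6 FPKM in titled controls and 70.3 to 96.1 FPKM in titled mutants, with *Krt25* at 0 throughout.

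**Figure D2:**
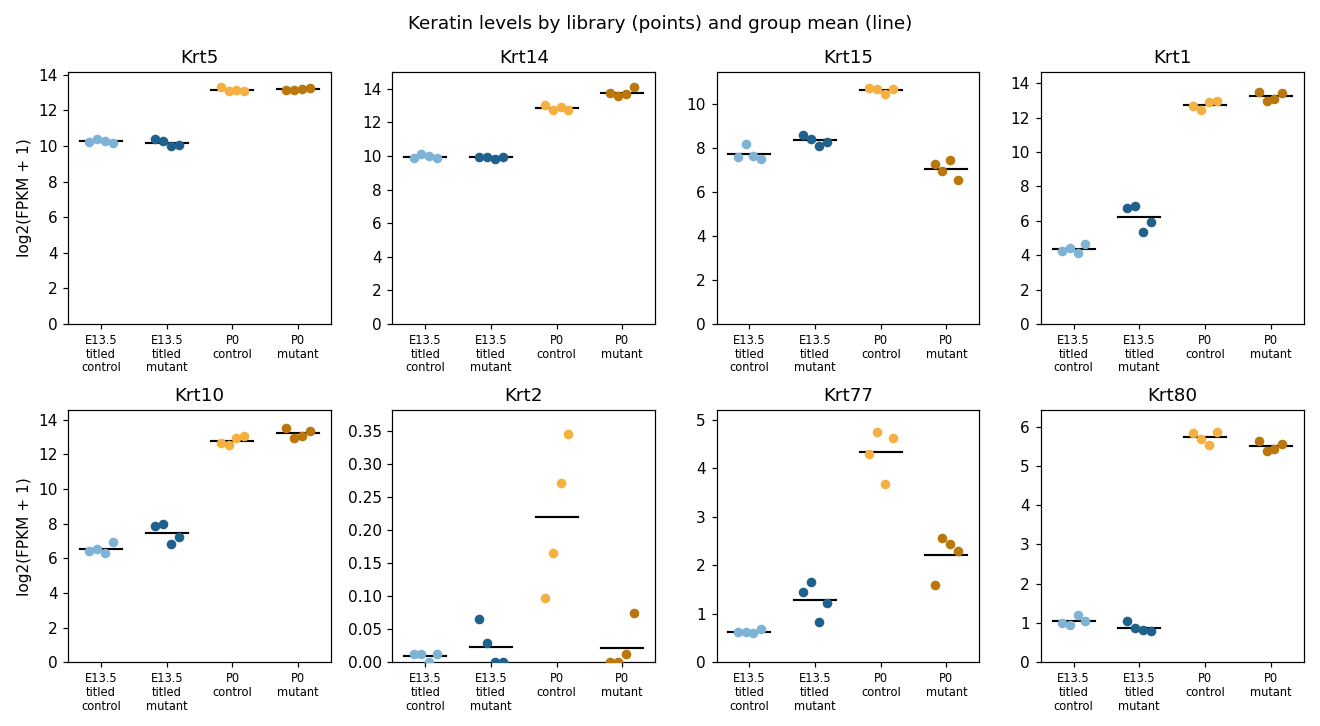
Level of each keratin as log2(FPKM + 1) (y axis, from 0) in 4 groups of 4 libraries (x axis), with a point per library, in replicate order from left to right, and a line at the group mean. *Krt14* and *Krt15* part in opposite directions at P0, *Krt1* and *Krt10* are higher in the libraries titled mutant at E13.5, and the groups overlap for *Krt5* at both stages.

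Ratios within a library do not depend on its scaling. The *Krt14* to *Krt5* ratio was 0.786 to 0.823 in titled controls, 0.744 to 0.900 in titled mutants and 0.753 to 0.843 in P0 controls, so these 3 groups overlapped. In P0 mutants it was 1.29 to 1.77, above all of them. The *Krt15* to *Krt14* ratio was 0.193 to 0.262 in titled controls, 0.295 to 0.385 in titled mutants, 0.183 to 0.246 in P0 controls and 0.00538 to 0.0133 in P0 mutants. The type I to type II ratio over the 8 keratins was 0.99989 to 1.08 in titled controls and 1.11 to 1.24 in titled mutants, without overlap. It was 0.968 to 1.004 in P0 controls and 1.15 to 1.34 in P0 mutants, and the groups did not overlap. Over all 54 keratin genes it was 1.097 to 1.1674 in titled controls and 1.1663 to 1.297 in titled mutants, with overlap. At P0 that wider ratio was 1.07 to 1.10 in controls and 1.15 to 1.32 in mutants, without overlap.

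*Krt1*, the type II keratin of spinous cells (chromosome 15, 101845428 to 101850786, minus strand), had the largest E13.5 difference of the 6 followed here that passed the filter. It was at 17.7, 20.8, 16.8 and 24.4 FPKM in titled controls and 104.6, 117, 39.6 and 61.0 FPKM in titled mutants. Every titled mutant lay above every titled control, though titled mutants differed from each other by 2.96-fold. The mean was 4.05-fold higher in titled mutants (log2 fold change 1.85, SE 0.31, limma adjusted p = 0.00334; exact permutation p = 0.0286, two-sided). Without the libraries numbered 67 the log2 fold change was 1.89 (limma adjusted p = 0.0339).

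*Krt10*, its type I partner (chromosome 11, 99385254 to 99389364, minus strand), was at 84.3, 89.8, 79.4 and 123 FPKM in titled controls and 232, 247, 110.2 and 147 FPKM in titled mutants. Titled control 4 lay above titled mutant 3. The mean was 1.95-fold higher in titled mutants (log2 fold change 0.90, SE 0.25, limma adjusted p = 0.0307; exact permutation p = 0.0571, two-sided). This call was lost without titled control 1 (limma adjusted p = 0.0642), 2 (0.0615) or 3 (0.0802), without titled mutant 1 (0.0773) or 2 (0.0733), without the libraries numbered 67 (0.0958), and with no filter on low values (0.0871).

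At P0 both spinous keratins were among the most abundant genes in either group. *Krt1* was at 6472, 5623, 7635 and 7930.2 FPKM in controls and 11539.5, 7914, 8844 and 10971 FPKM in mutants, and control 4 lay above mutant 2. The log2 fold change of 0.50 (SE 0.18, 95% interval 0.09 to 0.91) missed the threshold in limma (adjusted p = 0.0507). It passed without mutant 2 (0.60, adjusted p = 0.0418) and under several alternatives given with the processing.

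*Krt10* was at 6408, 5884, 7777 and 8515 FPKM in P0 controls and 11526, 7704, 8624 and 10470.5 FPKM in P0 mutants, with the groups overlapping. Its log2 fold change of 0.42 (SE 0.19, 95% interval −0.00031 to 0.84, limma adjusted p = 0.0986) was not called. The same libraries were high for both partners, namely control 4, mutant 1 and mutant 4. *Gm11940*, on the opposite strand inside *Krt10*, was at 30.8 to 50.3 FPKM in P0 controls and 32.1 to 53.5 FPKM in P0 mutants.

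The balance of the spinous pair differed by stage. The *Krt10* to *Krt1* ratio was 4.33 to 5.06 in titled controls and 2.10 to 2.78 in titled mutants, with no overlap, so at E13.5 *Krt10* was the more abundant of the pair in every library. At P0 it was 0.990 to 1.07 in controls and 0.954 to 0.999 in mutants, close to equal levels.

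**Figure D3:**
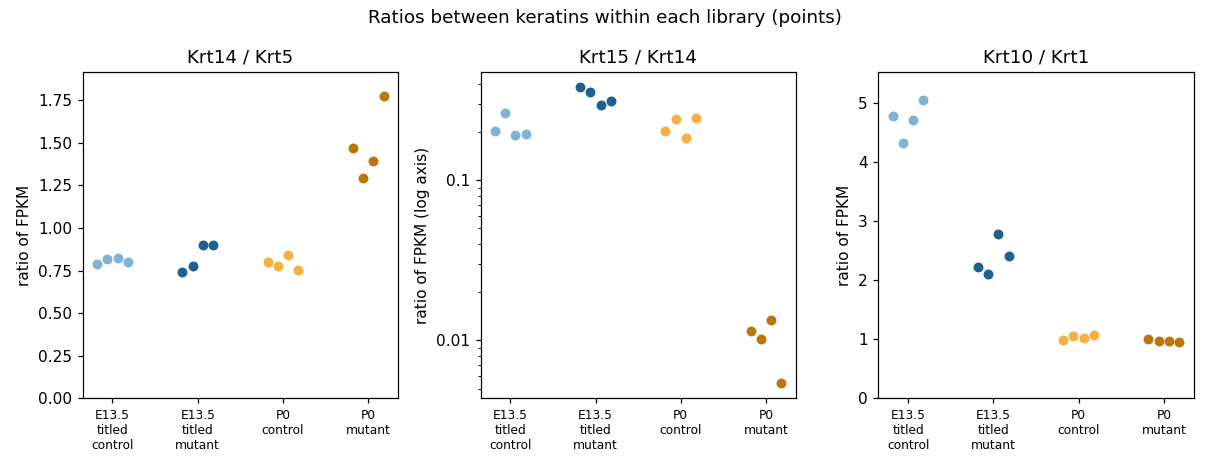
Ratio of FPKM between keratins within each library (y axis, from 0 for *Krt14* to *Krt5* and *Krt10* to *Krt1*, log axis for *Krt15* to *Krt14*) in 4 groups of 4 libraries (x axis), with a point per library. *Krt14* to *Krt5* is 1.29 to 1.77 only in P0 mutants, *Krt15* to *Krt14* drops to 0.00538 to 0.0133 there, and *Krt10* to *Krt1* goes from at least 2.10 at E13.5 to near 1 at P0.

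*Krt77*, a type II keratin whose gene lies near *Krt1* (chromosome 15, 101858732 to 101869705, minus strand), fell in P0 mutants. It was at 18.5, 25.7, 11.8 and 23.8 FPKM in controls and 2.03, 4.89, 4.39 and 3.87 FPKM in mutants. The groups did not overlap, and the mean was 5.26-fold lower (log2 fold change −2.12, SE 0.27, limma adjusted p = 0.000281). At E13.5 it was under 1 FPKM in titled controls (0.533, 0.532, 0.515 and 0.620) and at 1.72, 2.166, 0.766 and 1.32 FPKM in titled mutants. It missed the filter on low values, and its groups did not overlap (exact permutation p = 0.0286, two-sided). With no filter its log2 fold change was 0.65 (limma adjusted p = 0.0515).

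*Krt2*, a type II keratin of the upper spinous layer that in mouse is found mainly in ear, tail and sole skin (chromosome 15, 101810689 to 101818169, minus strand), was near 0 in every library. It was at 0.0695, 0.121, 0.207 and 0.272 FPKM in P0 controls and at 0, 0, 0.0091 and 0.0531 FPKM in P0 mutants, without overlap (exact permutation p = 0.0286, two-sided). At E13.5 it did not exceed 0.0470 FPKM in any library and was listed at 0 in titled control 3 and titled mutants 3 and 4. It missed the filter at both stages, and without the filter the P0 difference passed (limma adjusted p = 0.0301).

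*Krt80*, a type II keratin known from differentiating epithelial cells (chromosome 15, 101349571 to 101370125, minus strand), was not called at either stage. It was at 1.01, 0.923, 1.30 and 1.06 FPKM in titled controls and 1.07, 0.815, 0.755 and 0.741 FPKM in titled mutants. At P0 it was at 55.9, 50.2, 45.4 and 57.1 FPKM in controls and 48.4, 40.97, 42.3 and 45.9 FPKM in mutants, and the groups overlapped at both stages. Its log2 fold changes were −0.17 (SE 0.09, limma adjusted p = 0.214) at E13.5 and −0.22 (SE 0.09, limma adjusted p = 0.0798) at P0. Without P0 control 3 the latter was −0.29 (limma adjusted p = 0.0399).

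**Figure D4:**
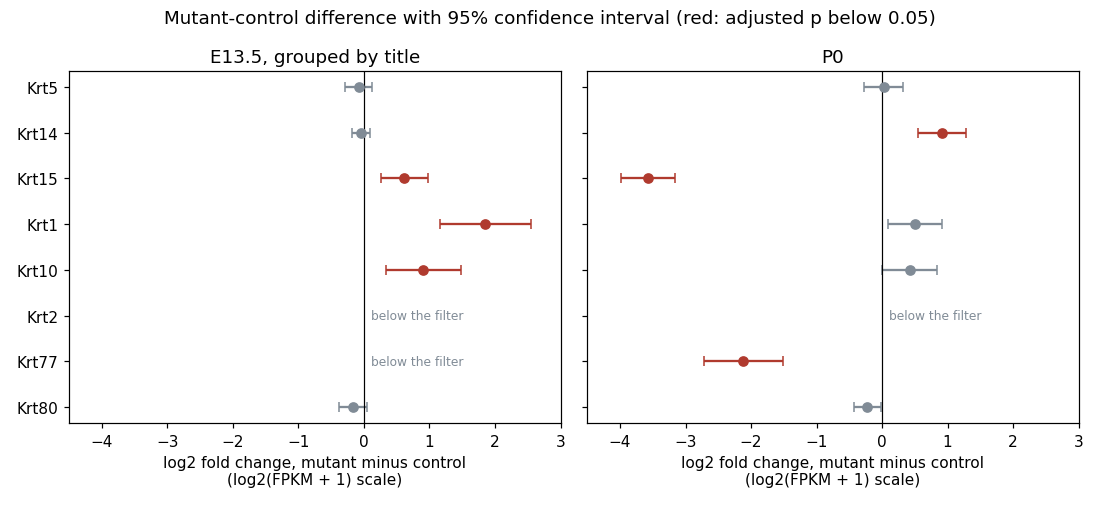
Log2 fold change of each keratin, mutant minus control, on the log2(FPKM + 1) scale (x axis) at E13.5 by title (left) and P0 (right), with points at the estimate and bars for the 95% confidence interval, red where the limma adjusted p is below 0.05. *Krt15*, *Krt1* and *Krt10* lie above 0 at E13.5, and at P0 *Krt14* lies above and *Krt15* and *Krt77* below.

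Counted together at E13.5, 6 of the 8 keratins passed the filter (at least 1 FPKM in 4 or more of the 8 libraries), 3 were higher in the libraries titled mutant and none was lower. Over all 12866 genes tested, 25.2% were called, 11.8% higher and 13.4% lower. At P0, 7 of the 8 passed the filter, 1 rose and 2 fell, against 42.3% of 13033 genes called, 11.7% higher and 30.7% lower. Among the keratins that passed the filter, groups did not overlap for *Krt1* at E13.5, against 28.1% of all tested genes in either direction. At P0 they did not overlap for *Krt14*, *Krt15* and *Krt77*, against 43.5% (11.7% higher and 31.8% lower). Groups were also apart for *Krt77* at E13.5 and *Krt2* at P0. Both missed the filter there and have no like background in these shares. The shares called were thus 3 of 6 and 3 of 7 for the keratins, the second near the background.

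The P0 balance depends on scaling. The median log2 fold change of all genes tested was −0.15 at P0 and 0.00 at E13.5. With median-of-ratios scaling, which brings the P0 median to 0.00, 49.4% of the genes called were higher against 27.6% as deposited. *Krt1* (log2 fold change 0.67, limma adjusted p = 0.0248) and *Krt10* (0.59, limma adjusted p = 0.0447) then passed too, and *Krt14* (1.08), *Krt15* (−3.41) and *Krt77* (−1.97) kept their calls. *Krt5* was not called under any scaling tried, and its sign changed between them.

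The mutant effect was also compared between stages, as the P0 difference minus the E13.5 difference, over 11858 genes of which 46.4% were called, 14.6% with a higher and 31.8% with a lower value at P0. It was 0.96 for *Krt14* (SE 0.15, limma adjusted p = 9.68e-05), −4.19 for *Krt15* (SE 0.25, limma adjusted p = 5.65e-09) and −1.35 for *Krt1* (SE 0.37, limma adjusted p = 0.00709). *Krt5*, *Krt10* and *Krt80* did not pass. Grouped by column name at E13.5, *Krt14* (0.87) and *Krt15* (−2.95) kept their direction and call, *Krt1* turned to 2.36, and *Krt10* (1.32) and *Krt80* (−0.40) passed as well. The direction of *Krt14* and *Krt15* therefore did not hang on which E13.5 label is right, while that of *Krt1* did.

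Controls were set side by side across stages without a test, since the tables were made separately from differently prepared cells. From titled controls to P0 controls, the mean FPKM of the basal keratins was higher by like factors, 7.52-fold for *Krt5*, 7.40-fold for *Krt14* and 7.46-fold for *Krt15*. It was 347-fold higher for *Krt1*, 75.8-fold for *Krt10*, 48.5-fold for *Krt80* and 36.3-fold for *Krt77*. With the E13.5 libraries grouped by column name, these were 7.90-fold for *Krt5*, 7.64-fold for *Krt14*, 4.90-fold for *Krt15*, 85.8-fold for *Krt1*, 38.8-fold for *Krt10*, 61.8-fold for *Krt80* and 13.3-fold for *Krt77*. In either grouping every P0 control lay above every E13.5 library for all 8 keratins. In titled controls the order was *Krt5*, *Krt14*, *Krt15*, *Krt10*, *Krt1*, *Krt80*, *Krt77* and *Krt2*. In P0 controls *Krt5* led, and *Krt14*, *Krt10* and *Krt1*, at 7343 ± 721, 7146 ± 1213 and 6915 ± 1067 FPKM (SD, n = 4 each), did not differ beyond their spread.

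Other genes of the same layers were read from lists. At E13.5 the 13 spinous genes that passed the filter, of 17, held 4 that were higher in the libraries titled mutant and none lower, among them the desmosomal cadherins *Dsg1b* (1.52 ± 0.232 to 3.46 ± 0.806 FPKM) and *Dsg1a* (2.61 ± 0.220 to 5.39 ± 1.83 FPKM, SD, n = 4 each). The fatty acid binding protein *Fabp5* went from 408 ± 24.9 to 579 ± 47.4 FPKM, and *Krtdap* from 232 ± 51.4 to 309.8 ± 107.8 FPKM without being called. Of 16 basal genes, 5 were higher and 4 lower, with the hemidesmosome collagen *Col17a1* at 32.9 ± 1.30 and 55.9 ± 4.68 FPKM. Over all genes tested at E13.5, 11.8% were higher and 13.4% lower. The medians were 0.37 for spinous, −0.04 for basal and 0.00 for all tested genes on the log2 scale.

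At P0, 9 of 17 spinous genes rose and 2 fell, and 8 of 17 granular genes rose and none fell. Over all genes tested at P0, 11.7% rose and 30.7% fell. *Fabp5* went from 697 ± 180 to 3112 ± 466 FPKM, *Cnfn*, which codes for a cornified envelope protein, from 40.5 ± 13.3 to 167 ± 54.1, *Dsc1*, a desmosomal cadherin, from 51.5 ± 10.6 to 139 ± 56.2 and *Krtdap* from 3356 ± 393 to 6379 ± 1500.1 FPKM (SD, n = 4 each). *Tgm1*, the transglutaminase that cross-links the cornified envelope, went from 20.1 ± 5.12 to 73.0 ± 8.25 FPKM. *Lor*, its substrate loricrin, was at 184 ± 106 and 192 ± 37.0 FPKM and was not called. Basal genes split, with 3 higher (*Itgb4*, *Itga3* and *Plec*, all of the hemidesmosome or the basal membrane) and 3 lower (*Igfbp3*, *Sox6* and *Cdh3*) of 16. The median log2 fold changes were 0.36 for spinous, 0.73 for granular, −0.25 for basal and −0.15 for all tested genes.

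**Figure D5:**
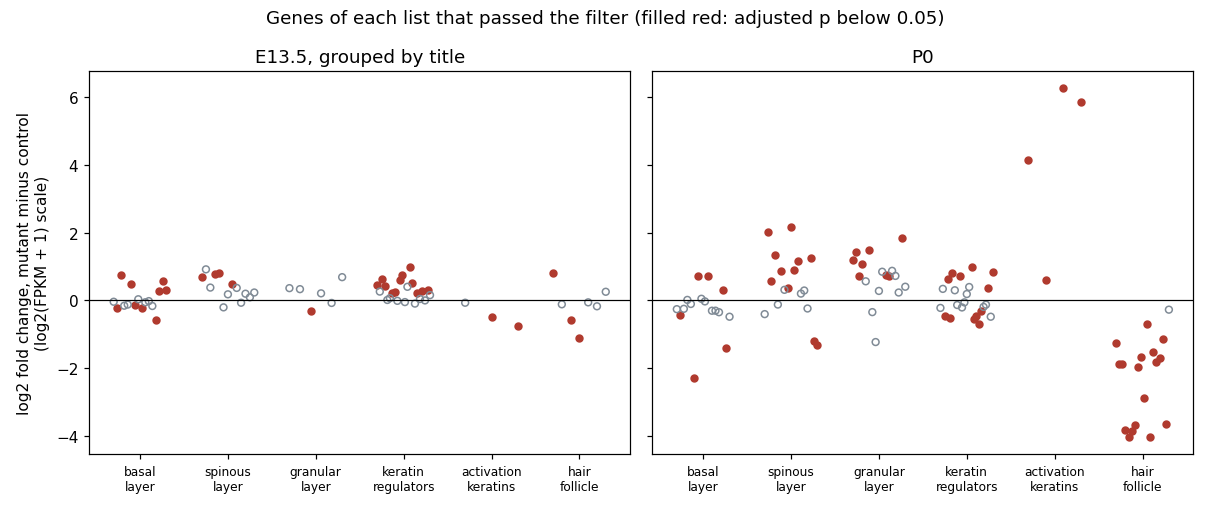
Log2 fold change, mutant minus control, on the log2(FPKM + 1) scale (y axis) of the genes of 6 lists that passed the filter (x axis) at E13.5 by title (left) and P0 (right), with a point per gene, filled red where the limma adjusted p is below 0.05 and open otherwise. At P0 the hair follicle points lie below 0 and the 4 activation keratins above it, with 9 spinous and 8 granular genes called higher. Over all genes tested at P0, 11.7% were called higher and 30.7% lower.

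Regulators of keratin genes or of keratinocyte differentiation, most but not all of them transcription factors, were listed as well. At E13.5, 12 of the 22 tested were higher in the libraries titled mutant and none was lower, against 11.8% and 13.4% over all genes, among them *Pou2f3* (13.9 ± 0.362 to 28.7 ± 4.83 FPKM) and *Gata3* (24.9 ± 0.670 to 39.2 ± 3.69, SD, n = 4 each). *Trp63*, which codes for p63, the master regulator of stratified epithelia, was at 123 ± 2.79 and 151 ± 3.01 FPKM. At P0, 6 of 23 rose and 6 fell, against 11.7% higher and 30.7% lower over all genes. *Gata3* (49.95 ± 2.62 to 36.0 ± 1.27 FPKM) and *Pou2f3* (103 ± 8.73 to 70.9 ± 12.9 FPKM) fell, as did *Pou3f1*, *Grhl2*, *Rbpj* and *Smarca4*. Among the 6 that rose were *Ovol1*, *Zfp750*, *Grhl3* and *Klf4*, with *Klf4* at 145 ± 11.8 and 241 ± 42.4 FPKM. *Trp63* was at 145 ± 3.34 and 107 ± 28.1 FPKM without being called (limma adjusted p = 0.0574).

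Markers of cells other than keratinocytes also moved between groups. For comparison, 11.8% of all tested genes were higher and 13.4% lower at E13.5, and 11.7% rose and 30.7% fell at P0. At E13.5, 2 of 6 tested fibroblast genes were higher in the libraries titled mutant and none lower, with sums of 249.9 to 283 and 429.6 to 445 FPKM and none at 0 throughout. *Postn* and *Dcn* held most of these sums. *Postn* went from 149 ± 18.0 to 308 ± 14.4 FPKM, and *Dcn* was at 99.7 ± 5.61 and 98.7 ± 4.22 FPKM (SD, n = 4 each). Simple and periderm keratins had 3 of 6 lower and none higher, with sums of 151 to 219 and 85.3 to 154 FPKM. At P0, 7 of 7 tested myeloid and Langerhans markers fell, with sums of 142 to 206 and 34.2 to 40.7 FPKM. Of the fibroblast genes tested there, 3 of 4 fell, with sums of 453 to 552 and 111 to 224 FPKM. *Postn* (282 ± 15.9 to 44.2 ± 13.0 FPKM) and *Dcn* (208 ± 39.6 to 124 ± 38.9 FPKM) again held most of the fibroblast sums. *Lum*, *Pdgfra* and *Twist2* were under 1 FPKM in every P0 library. Whether these sums follow the number of fibroblasts was not tested. Melanocyte markers had 5 of 8 higher and none lower at P0. The part of these cells in the keratin differences was not tested.

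The genes with the most similar pattern were sought in a subset of 11831 genes. The measure was the root-mean-square difference of log2(FPKM + 1) over 16 libraries after each gene was centred within a stage. The subset also held genes that were not tested at both stages. At E13.5 *Lhx2* did not exceed 0.882 FPKM and *Krt28* did not exceed 0.139 FPKM. Genes outside the subset were not searched, so nearer genes may exist. *Krt15* was nearest to *Lhx2* (0.27), the hair keratin *Krt35* (0.33) and *Krt28* (0.36). *Krt10* was nearest to *Serpinb12* (0.17), *Fam57a* (0.18) and *Serpinb5* (0.22), and *Krt1* to *Serpinb12* too (0.39). *Krt14* was nearest to *Lad1* (0.10), an anchoring filament protein of the basement membrane, and *Krt77* to *Igfbp3* (0.32). *Krt5* and *Krt80* were nearest to *Rtn4r* (0.06) and *Fdxr* (0.09).

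Promoter windows of 300 bases, 250 before and 50 after the start site, were read from RefSeq on GRCm38.p6 for the suprabasal keratins *Krt10*, *Krt77* and *Krt2*. They were chosen since *Krt77* and *Krt2* were lower in P0 mutants with no overlap while *Krt10* was not. *Krt2* was under the filter there, at no more than 0.272 FPKM in any library. Of the 8 keratins 5 matched the table, and the window of *Krt14* starts inside the gene and was not used. Capitals mark a TATA box (TATAAA) in *Krt10* and a KLF-type match (CCNCNCCC) in *Krt77* and *Krt2*, and all are on the minus strand of the genome, printed 5′ to 3′.
Krt10 (chr11:99389315-99389614): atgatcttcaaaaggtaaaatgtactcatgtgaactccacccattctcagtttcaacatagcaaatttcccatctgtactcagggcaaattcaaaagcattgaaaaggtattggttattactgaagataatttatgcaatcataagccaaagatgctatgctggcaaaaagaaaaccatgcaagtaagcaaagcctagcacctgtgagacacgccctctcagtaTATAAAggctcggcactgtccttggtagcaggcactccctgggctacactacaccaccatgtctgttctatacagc
Krt77 (chr15:101869656-101869955): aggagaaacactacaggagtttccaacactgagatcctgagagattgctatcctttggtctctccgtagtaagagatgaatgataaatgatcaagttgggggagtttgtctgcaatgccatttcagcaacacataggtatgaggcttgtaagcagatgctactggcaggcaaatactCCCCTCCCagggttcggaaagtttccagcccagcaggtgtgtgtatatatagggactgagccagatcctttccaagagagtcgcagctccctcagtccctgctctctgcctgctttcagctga
Krt2 (chr15:101818120-101818419): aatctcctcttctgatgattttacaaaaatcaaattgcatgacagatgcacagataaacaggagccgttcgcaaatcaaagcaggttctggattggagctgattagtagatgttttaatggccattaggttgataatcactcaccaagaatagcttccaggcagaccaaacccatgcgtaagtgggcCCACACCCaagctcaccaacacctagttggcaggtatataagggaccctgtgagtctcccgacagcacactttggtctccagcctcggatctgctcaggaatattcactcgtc

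The TATA match of *Krt10* began at −26 from the start site, and the KLF-type matches began at −73 in *Krt77* and −63 in *Krt2*. Letters were searched on both strands. Of 32851 promoter windows, 13.6% held TATAAA, 49.5% the KLF-type letters, 7.81% TGANTCA, bound by AP-1, and 16.6% GCCNNNGGC, bound by AP-2. None of these letters was found in the *Krt5* window, and the other searched letters were not found in the 3 windows shown. TATAAA was the only TATA form searched. The similar letters tatataag in *Krt2* and tatatata in *Krt77* were therefore not marked, and their absence from the matches does not mean that a TATA box is missing. A match describes the letters and not a bound site.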

How the data were processed

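RNA-Seq of epidermal sheets at E13.5 and of unplated keratinocytes at P0 was read in 16 libraries. Per the methods, the authors ran QuickNGS, and they deposited FPKM in 1 table per stage. The processing notes of the submitters list FastQC 0.11.5 beside bcl2fastq 2.17.1.14 and 2.18.0.12 and mm10 as the build. The aligner was not given in the sources used here.

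Groups follow the sample titles. Genes that reached 1 FPKM in 4 or more of the 8 libraries were tested on log2(FPKM + 1), where a pseudocount of 1 understates changes of low genes, in R 4.3.3 by limma 3.58.1 (linear model, mean trend). Tests were two-sided, and p-values were adjusted by Benjamini-Hochberg over all tested genes, with a threshold of 0.05. The mutant effects of the stages were compared as a contrast over 16 libraries. Single keratins also had an exact permutation test of 4 against 4. The labels do not state which libraries come from separate litters, so p-values measure the spread between these libraries. The limma steps were tested on simulated data. Transcript windows were compared in GENCODE vM21 and promoters in RefSeq. Python 3.11.15, pandas 2.3.3, numpy 2.4.6, scipy 1.17.1 and matplotlib 3.10.9 were used.

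The keratins and the gene lists were chosen with earlier results of these data known. All 8 keratins are named. Of each list and stage, up to 3 called genes with the largest change and up to 2 with the highest FPKM were eligible, *Itga3*, *Plec*, *Cdh3* and the regulators that fell at P0 being named outside this rule after their values were seen, and the 3 most similar genes per keratin. A gene eligible by this rule is not reported here. Lists without a result in the text are summed up in the closing section. Alternatives were no filter, a filter on mean FPKM (5 or more), a pseudocount of 0.1, quantile normalization, median-of-ratios scaling, a fixed sum outside keratins, no mean trend, a replicate block, each library left out, E13.5 by column name or without the libraries numbered 67, and P0 controls with *K14-Cre* alone.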

Additional observations from a re-analysis of the deposited data

Results flagged for a closer look

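Among 32 groups of 4 values (8 keratins in 4 groups), 4 held a library far from the other 3 by Dixon's criterion, where chance gives about 1 in 20. They were *Krt15* in titled control 2 at E13.5 (286 FPKM, above the others), *Krt15* in P0 control 3 (1402 FPKM, below the others), *Krt2* in titled control 3 (listed at 0) and *Krt77* in titled control 4 (0.620 FPKM, above the others).

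The mutant effect differed between P0 and E13.5 in the limma contrast for *Krt14* (0.96), *Krt15* (−4.19) and *Krt1* (−1.35) with the E13.5 libraries grouped by title. Grouped by column name, it differed for *Krt14* (0.87), *Krt15* (−2.95), *Krt1* (2.36), *Krt10* (1.32) and *Krt80* (−0.40).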

How the results depend on the processing

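The E13.5 count of 3 keratins called was 1 with no filter and 1 without the libraries numbered 67, and 1 to 3 with each library left out, *Krt1* being called in all of these. The P0 count of 3 was 5 with median-of-ratios scaling and 3 to 4 with each library left out, and the stage-difference count of 3 was 5 with no filter, 5 with E13.5 by column name, 5 by column name with separate variances by stage (an alternative chosen after seeing the data, which left the count by title at 3) and 3 throughout with each library left out. At P0 *Krt14* lost its call with no filter (limma adjusted p = 0.0831), and *Krt1* gained one with a pseudocount of 0.1 (0.0473), a mean FPKM of at least 5 (0.0315), quantile normalization (0.00126), a fixed sum outside keratins (0.0480) and no mean trend (0.0274). Signs turned by title for uncalled values: at E13.5 *Krt5* to 0.046 and *Krt14* to 0.060 with quantile normalization, and *Krt14* to 0.0047 with the fixed sum and 0.0027 without titled control 2 (range −0.072 to 0.0027 with each library left out). At P0 *Krt5* turned to −0.16 with quantile normalization, −0.017 with the fixed sum and −0.00016 without control 2 (range −0.00016 to 0.075). In the stage difference *Krt80* turned to 0.090 with a pseudocount of 0.1, 0.11 with median-of-ratios scaling and 0.0013 without titled mutant 1 (range −0.12 to 0.0013), and *Krt5* to −0.21 with quantile normalization. By column name the E13.5 values were 0.079 for *Krt5*, 0.044 for *Krt14*, −0.62 for *Krt15*, −1.85 for *Krt1*, −0.90 for *Krt10* and 0.17 for *Krt80*, and the stage differences −0.055 for *Krt5*, 2.36 for *Krt1* and 1.32 for *Krt10*. The causes were not tested. Replicate numbers did not pair the libraries: same-numbered libraries correlated by −0.01 to 0.07 at E13.5 and −0.02 to 0.11 at P0. With a replicate block, 3 keratins were called at E13.5, 3 at P0 and 3 in the stage difference, against 2766, 5130 and 5305 genes in all. Read numbers are unknown, so the precision of the low levels of *Krt2*, and of *Krt77* at E13.5, cannot be given.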

Other observations

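Markers of the remaining cell types were low or uneven. Over all tested genes, 11.8% were higher and 13.4% lower at E13.5, and 11.7% rose and 30.7% fell at P0. At E13.5, 4 of 7 tested melanocyte markers were lower in the libraries titled mutant and none was higher, with sums of 72.8 to 85.7 and 57.4 to 58.9 FPKM, and at P0 the sums were 226 to 296 in controls and 321 to 678 FPKM in mutants. Of the T cell markers, *Thy1* alone passed the filter at E13.5 and was higher in the libraries titled mutant, with *Cd3d* and *Cd3g* at 0 throughout, and at P0 3 of 4 fell and 1 rose. Endothelial markers summed to at most 1.44 FPKM and Merkel cell markers to at most 2.78 FPKM in any library, and none passed the filter at either stage. Muscle markers had 3 tested at E13.5 and none called. Of 3 tested erythroid markers 1 was lower at E13.5, and sums ranged from 14.5 to 373 FPKM over all libraries. At E13.5, 1 of 2 tested myeloid markers was higher and *Cd207* was at 0 throughout, and 1 of 6 tested granular genes was lower. Activation keratins had 2 of 3 lower and none higher in the libraries titled mutant. At P0, 3 of 5 tested simple and periderm keratins fell.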
